A study of Mus musculus with 12 samples.

Results

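Among 22180 genes measured in mouse pancreatic cells, 111 were higher in every array of the acinar-to-ductal metaplasia (ADM) culture than in every array of the other cell states by a wide margin, and 3 were lower by the same margin. The sets were chosen by value. A gene entered the higher set where its lowest ADM array lay at least 1 log2 unit above the highest of the 9 other arrays, and the lower set where its highest ADM array lay at least 1 unit below the lowest of them. The distance between those 2 arrays is called the gap here, and 1 log2 unit is a doubling. The margin is a descriptive choice, so the levels of these genes in ADM are given as values with no test. Tests are given only for contrasts that hold no ADM array, though the ADM arrays enter the pooled spread behind them.

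The study used Affymetrix arrays, 3 for each of 4 cell states, all labelled C57Bl6/J wildtype. Adult acinar cells and embryonic acinar cells were taken from tissue by digestion and went straight to RNA extraction; the embryonic day is not given in the labels. The ADM group was kept for 7 days in a 3D collagen gel and received Tgf-alpha, which activates the EGF receptor, at 50 ng/ml. Tumor cells were low-passage cultures in standard medium, and the sample descriptions of their 3 arrays share an identifier, so they may be 1 line. No cultured acinar cells without Tgf-alpha are among the 12 arrays, so the conversion, the gel, the time in culture and the ligand cannot be told apart. The labels do not say whether the replicates came from separate animals or cultures, so p-values measure only the spread between these arrays, which may be technical.

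ADM is the change of enzyme-secreting acinar cells into cells that resemble pancreatic duct. Acinar cells lose their digestive enzymes and their transcription factors, take on keratins and junctions of duct epithelium, and can return to the acinar state once injury ends. EGF receptor ligands such as Tgf-alpha drive the change in culture, and matrix metalloproteinase 7 (Mmp7) is a known product of metaplastic ducts. The AP-1 transcription factors, dimers of Fos and Jun proteins, act at the end of the pathway from that receptor and bind a short palindromic site in DNA.

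The labels were checked against marker genes. Krt19, a keratin of duct cells, had a mean log2 level of 6.92 in adult, 7.82 in embryonic, 10.12 in ADM and 10.37 in tumor cells, and Krt7, its relative in duct cells, had 5.91, 7.64, 9.65 and 10.22. Bhlha15, a transcription factor of mature acinar cells, had 10.05, 7.87, 4.16 and 4.13 in the same order. The ADM arrays did not follow a duct pattern in every gene. Cpa1, a digestive carboxypeptidase of acinar cells, was at 12.41 against 13.13 in adult and 3.96 in tumor cells. Sox9, a transcription factor of ducts and progenitors, was at 7.74 against 8.30 in adult cells. Acinar genes were lower than in adult cells by unequal amounts. Amy2b, Ptf1a and Rbpjl averaged 11.1, 8.88 and 9.47 in adult and 4.61, 5.91 and 4.96 in ADM cells. Ctrb1, a digestive protease, averaged 13.32 in adult and 13.12 in ADM cells. Array medians ran from 3.48 to 3.72 and upper quartiles from 5.04 to 5.51, with the 3 adult arrays lowest in upper quartile. Arrays of a group correlated at 0.967 to 0.991 across genes. A background level of 3.62 was set from 1394 olfactory and vomeronasal receptor genes, and a level at or below it is called background here.

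The promoters of 5 ADM-high genes are shown because an AP-1 site lies in each: Mmp7, Cldn4 and Srpx2 are among the genes with the widest gaps, Ivl is a gene of stratified epithelium, and Mmp3 is a second secreted metalloproteinase. Each sequence is the 250 bases before the most upstream start in RefSeq, build GRCm38.p6, read 5′ to 3′ along the gene. The capitals mark AP-1 sites (TGACTCA or TGAGTCA) and TATA boxes (TATAAA or TTTATA). Mmp7 lies at chr9:7691840-7692089 on the plus strand, Cldn4 at chr5:134946935-134947184 on the minus strand, Srpx2 at chrX:133908175-133908424 on the plus strand, Ivl at chr3:92573736-92573985 on the minus strand and Mmp3 at chr9:7445572-7445821 on the plus strand.
Mmp7: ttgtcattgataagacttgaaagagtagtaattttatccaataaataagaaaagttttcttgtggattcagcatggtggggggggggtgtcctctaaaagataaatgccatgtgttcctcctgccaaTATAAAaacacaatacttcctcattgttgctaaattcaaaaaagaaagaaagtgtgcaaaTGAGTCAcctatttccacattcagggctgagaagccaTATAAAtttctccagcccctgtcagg
Cldn4: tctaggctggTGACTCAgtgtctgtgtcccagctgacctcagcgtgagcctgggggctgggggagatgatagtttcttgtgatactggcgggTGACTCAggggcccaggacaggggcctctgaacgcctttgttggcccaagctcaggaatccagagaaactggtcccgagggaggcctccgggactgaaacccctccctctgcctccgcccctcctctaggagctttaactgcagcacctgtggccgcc
Srpx2: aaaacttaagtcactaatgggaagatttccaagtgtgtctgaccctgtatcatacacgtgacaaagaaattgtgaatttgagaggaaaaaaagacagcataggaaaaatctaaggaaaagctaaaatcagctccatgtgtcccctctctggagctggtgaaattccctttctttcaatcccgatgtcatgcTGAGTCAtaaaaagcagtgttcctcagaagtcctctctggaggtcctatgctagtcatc
Ivl: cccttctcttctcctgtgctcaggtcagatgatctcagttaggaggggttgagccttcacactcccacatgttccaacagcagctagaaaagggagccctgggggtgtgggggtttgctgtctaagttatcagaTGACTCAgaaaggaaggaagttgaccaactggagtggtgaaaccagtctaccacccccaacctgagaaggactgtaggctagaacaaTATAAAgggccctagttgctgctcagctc
Mmp3: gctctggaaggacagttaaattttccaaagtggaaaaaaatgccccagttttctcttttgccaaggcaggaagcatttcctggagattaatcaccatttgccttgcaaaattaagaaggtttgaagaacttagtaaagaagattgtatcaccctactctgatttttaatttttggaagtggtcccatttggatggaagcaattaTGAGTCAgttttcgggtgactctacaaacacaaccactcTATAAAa

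With -1 as the last base before the start, the AP-1 site of Mmp7 began at -63 and was followed by a TATA box at -26, with a further TATA match at -123. Mmp3 had the same order, an AP-1 site at -46 and a TATA match at -7. Ivl had an AP-1 site at -116 and a TATA box at -29. Cldn4 had AP-1 sites at -240 and -158 and no TATA match, and Srpx2 had an AP-1 site at -59. A match is a run of letters and not a measured binding site.

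Of the 111 ADM-high genes, 92 had a promoter in the RefSeq table, which covers 250 bases before and 50 after each start. The AP-1 site, searched as TGACTCA on both strands, stood in the promoters of 20 of those 92 genes (21.7%), against 5.95% of all genes with a promoter in the table and 5.54% of those on the array. Among the members with a gap of at least 2, 6 of 20 genes with a promoter had it (30%). The share was 6.46% of the genes that were above all 9 other arrays by less than 1 unit. It was 5.14% of the other genes called higher in ADM than in adult cells (12.5% of all genes were called so), 4.79% of those called higher in tumor than in adult cells, and 4.08% of non-members at least as bright in ADM as the dimmest member. These shares are descriptions, and were not tested.

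Other motifs were searched the same way. The TATA box was found in 20 of the 92 genes (21.7%), against 15.7% of all genes with a promoter and 8.44% of the non-members at least as bright in ADM. The TEAD site (CATTCC, both strands), bound by partners of the growth regulators YAP and TAZ, was in 12 (13% against 16.6%). The ETS site (GGAAGT, both strands) was in 19 (20.7% against 26.5%). Of the members with a gap of at least 2, 20 had a promoter. The TATA box was in 6 of these (30%), the ETS site in 8 (40%) and the TEAD site in 1 (5%). Among the non-members at least as bright in ADM, the ETS site was in 32.9% and the TEAD site in 14.1%. The AP-1 carriers beyond the printed ones included Il11, Gpnmb, Car9 and Sprr2f.

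**Figure D1:**
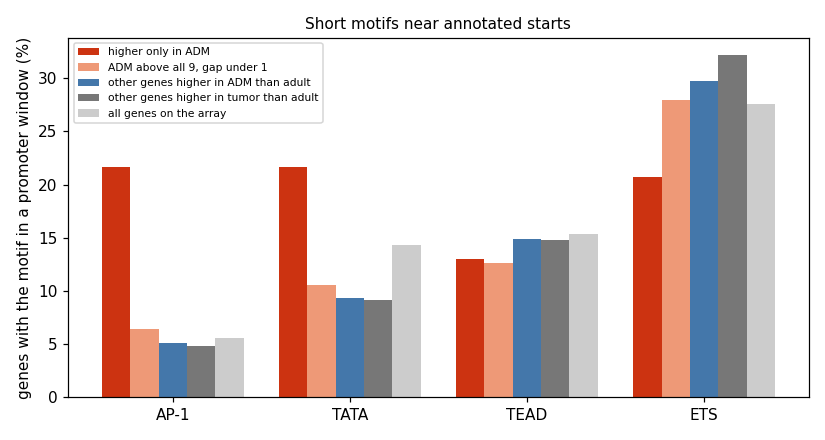
Bars give the percentage of genes whose RefSeq promoter (250 bases before to 50 after the start) holds each motif, for ADM-high genes and for the comparison sets named in the legend. The AP-1 bar of the ADM-high genes reaches 21.7%, against 5.54% for all genes on the array.

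The 111 genes made up 0.5% of the genes on the array, and the 3 lower genes 0.0135%. Centring on housekeeping genes changed the counts to 63 (61 of them among the 111) and 9, and choosing without replicate 1 of every state gave 180 and 9. Without a margin, 916 genes (4.13%) were above all 9 other arrays in all 3 ADM arrays and 473 (2.13%) were below them. Member counts of the gene lists below are to be read beside the 0.5%, and counts above all 9 other arrays beside the 4.13%. A short list holds few or no members at 0.5%, so a count of 0 is near that share. The gap of the ADM-high genes had a median of 1.5 and reached 6.35, with 26 genes at 2 or more and 8 at 3 or more. The next nearest cell state by mean level was embryonic acinar for 53 genes, tumor for 32 and adult acinar for 26. All 3 other states were at background for 18 genes, and none of them for 54.

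**Figure D2:**
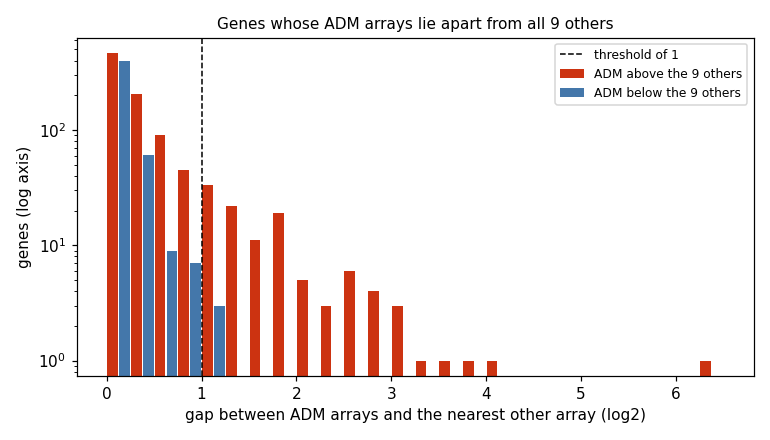
The number of genes, on a log axis, by the gap in log2 units between ADM arrays and the 9 other arrays, for genes whose ADM arrays all lie above the others and for those whose ADM arrays all lie below. The gap of 1 is marked; 111 genes lie past it on the higher side and 3 on the lower side.

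Mmp7, a secreted protease of ductal and glandular epithelium, measured 11.50, 11.27 and 11.59 in the ADM arrays, and the 9 other arrays ran from 3.62 through a median of 4.31 to 4.92. Its ADM mean of 11.45 ± 0.17 (SD, n = 3) was 117-fold that of adult cells, the nearest state, and no other gene had as wide a gap. Of the 2 Mmp7 probe sets, the second was dim in every state (means of 3.25 to 3.62) and gave a gap of -0.57, so the Mmp7 result rests on 1 probe set.

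Cldn4, a claudin of tight junctions, measured 10.25, 10.56 and 10.69 in ADM. The other arrays ran from 3.17 to 6.22, with the embryonic arrays (6.0, 6.22 and 6.16) above adult and tumor arrays. The ADM mean was 20.7-fold the embryonic mean. Among 32 measured claudins and junction genes, Cldn4 was the 1 in the higher set (3.12%, against 0.5% of all genes). Above all 9 other arrays were 12 of the 32, against 4.13% of all genes. Among those 12, Cldn6 had a gap of 0.87 and Ocln, the tight junction protein occludin, 0.98.

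Cftr, the chloride and bicarbonate channel of duct cells, measured 6.90, 6.22 and 6.61 in ADM and 2.89 to 3.59 in the 9 other arrays, all at background, so its ADM level was at least 7.76-fold higher. Scnn1a, the alpha subunit of the epithelial sodium channel, measured 7.54, 8.19 and 8.16 against 3.08 to 4.56. Slc4a11, a membrane transporter of the SLC4 family, was at 9.34, 9.63 and 9.53 in ADM, at 6.24 to 6.63 in tumor cells and at 3.33 to 3.71 in the acinar arrays. Tumor cells therefore stood between ADM and both acinar states for Slc4a11, while for Cftr no other state rose above background.

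Of 26 duct genes listed, 4 were in the higher set (15.4%, against 0.5% of all genes): Mmp7, Cldn4, Cftr and Lcn2. A further 4 were above all 9 other arrays by less than 1 unit (Epcam, Cldn7, Wfdc2 and Clu). Across the 26, the median difference between the ADM mean and the highest other group mean was -0.24, against -0.33 over all genes. Krt20, a keratin of gastrointestinal surface epithelium, measured 10.63, 11.41 and 10.90 in ADM and 3.34 to 7.49 elsewhere, and was the sole member of the higher set among 9 simple keratins. Cdh16, a cadherin first described in kidney epithelium, measured 7.26, 6.31 and 6.65 against 3.47 to 3.77.

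**Figure D3:**
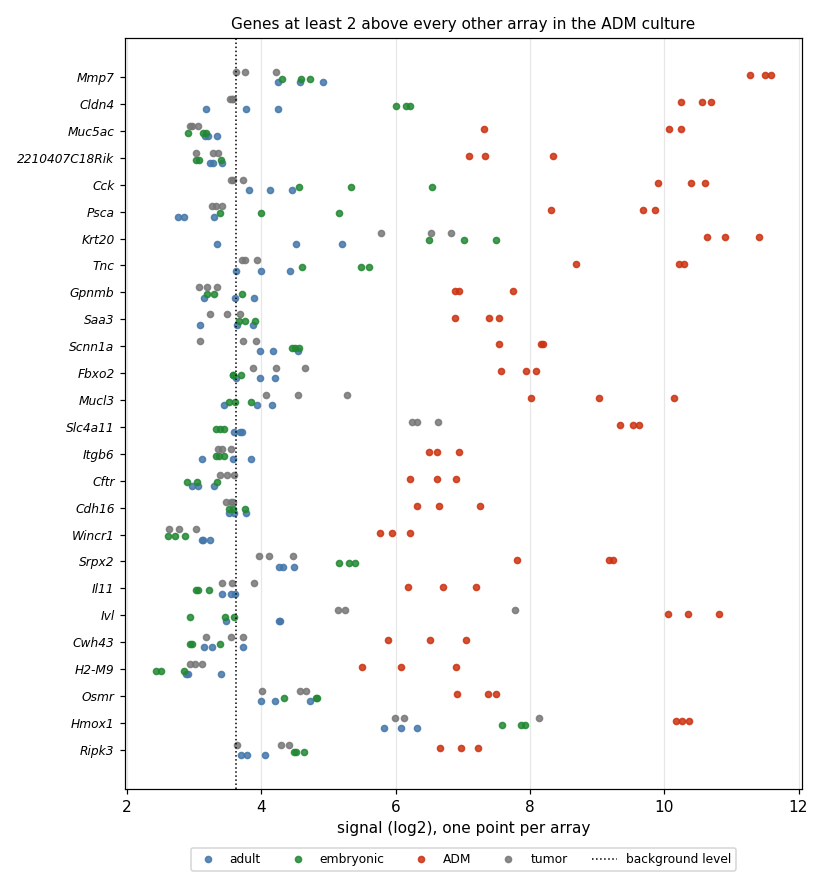
Log2 signal of the 26 ADM-high genes with a gap of at least 2, 1 point per array, coloured by cell state; the dotted line is the background level of 3.62. In each row the 3 ADM points lie right of all 9 others, from Mmp7 (gap 6.35) to Ripk3 (gap 2.03).

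Muc5ac, the gel-forming mucin of gastric pits, measured 10.07, 10.25 and 7.31 in ADM and 2.90 to 3.34 in all other arrays, which were at background; its ADM mean was at least 48.1-fold higher. Psca, a surface protein anchored by a lipid and abundant in stomach, measured 9.86, 9.68 and 8.31 against 2.76 to 5.16. Mucl3, a mucin-like membrane protein, measured 10.15, 9.03 and 8.02 against 3.45 to 5.28. In all 3 genes the third ADM array was the lowest.

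Among 35 gastric, trefoil and mucin genes measured, 2 were in the higher set (Muc5ac and Psca), or 5.71% against 0.5% of all genes. Another, Gcnt1, was the 1 in the lower set. Tff1, a trefoil peptide of the gastric surface, averaged 11.39 in ADM and 9.36 in tumor cells with a gap of 0.96, just short of the margin. Ctse, the gastric protease cathepsin E, averaged 11.56 and 9.61 with a gap of 0.89. Tff2, a trefoil peptide of mucous neck cells, went the other way and was below all 9 other arrays in ADM by 0.12. The list as a whole had a median difference of -0.17 from the highest other group.

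Squamous genes gave 2 members of 38 (5.26%, against 0.5% of all genes). Ivl (involucrin), a protein cross-linked into the envelope of cornified cells, measured 10.35, 10.81 and 10.05 in ADM, 7.77, 5.24 and 5.14 in tumor cells and 2.94 to 4.27 in the acinar arrays. Sprr2f, a small proline-rich protein of the same envelope, measured 4.56, 9.07 and 5.08, the widest spread among the ADM arrays of any member (SD 2.47). It entered the set because its lowest ADM array still cleared the 9 others, which were at background with a highest value of 3.47.

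Matrix and protease genes formed the next group. Tnc (tenascin C), a matrix glycoprotein of wounds and tumour stroma, measured 10.29, 8.69 and 10.22 in ADM against 3.62 to 5.60. Thbs1 (thrombospondin-1), which can activate latent TGF-beta, measured 10.34, 10.32 and 10.83 against 4.22 to 8.74. Lox (lysyl oxidase), which cross-links collagen, measured 10.51, 9.78 and 10.66 in ADM and 8.57, 8.19 and 8.52 in embryonic cells, with adult and tumor arrays at 3.80 to 4.48. With Lama3, a chain of the epithelial laminin-332, these were 4 of 35 matrix glycoproteins listed (11.4%, against 0.5% of all genes). None of 28 collagen chains was in the set.

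The proteases and their inhibitors gave 4 of 31 genes on the metalloproteinase list (12.9%, against 0.5% of all genes). They gave 4 of 25 on the list of plasminogen activators and serpins (16%). Beside Mmp7, Mmp3 (stromelysin-1) measured 7.28, 7.12 and 8.44 in ADM and 2.58 to 5.46 elsewhere. Timp1, an inhibitor of these enzymes, averaged 11.01 in ADM, 8.85 in tumor, 6.31 in embryonic and 3.88 in adult cells. Adam12, a membrane protease of the disintegrin family, averaged 8.55 in ADM, 6.80 in embryonic, 6.28 in tumor and 4.90 in adult cells. Timp1 and Adam12 thus had their lowest level in adult cells.

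The serpin list gave Tfpi2 (a Kunitz-type protease inhibitor, gap 1.83), Serpinb5 (maspin, 1.79), Serpinb2 (an inhibitor of plasminogen activators, 1.19) and Serpina3n (a secreted acute-phase serpin, 1.10). Their ADM means ran from 5.38 to 7.43. Srpx2, a secreted sushi-repeat protein that binds the urokinase receptor, measured 9.17, 7.81 and 9.24 in ADM against 3.97 to 5.39.

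Among 19 integrins, Itgb6 and Itga5 were in the higher set (10.5%, against 0.5% of all genes). Itgb6, the epithelial beta chain that binds latent TGF-beta and tenascin C, measured 6.61, 6.49 and 6.95 in ADM against 3.12 to 3.85, with all 3 other states at background by mean, and was at least 8.35-fold higher in ADM. Itga5, part of the fibronectin receptor, measured 9.15, 8.16 and 8.88 against 3.47 to 6.74. Tgfbr1, the type I receptor for TGF-beta, measured 7.60, 7.81 and 7.98 against 4.09 to 5.75, and was the 1 member among 26 genes of the TGF-beta and BMP list.

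Fibroblast markers were above background in the ADM cultures. Of 20 fibroblast and stellate markers, 19 were above background by mean in ADM, 20 in adult, 20 in embryonic and 10 in tumor cells. Their summed log2 level was 130.4 to 151.1 over the ADM arrays, 100.3 to 103.0 over the adult arrays, 151.3 to 165.4 over the embryonic arrays and 79.8 to 81.2 over the tumor arrays. No fibroblast marker was in the higher set, and only Pdgfrb and Pdpn were above all 9 other arrays at all, each by 0.24. The part of these cells in the levels of Tnc, Thbs1, Lox, Mmp3 and the other matrix genes was not tested. In bulk RNA, fewer cells of a type and less RNA per cell cannot be told apart.

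Cytokine and injury genes contributed 5 of 38 (13.2%, against 0.5% of all genes). Saa3, an acute-phase serum amyloid, measured 6.89, 7.54 and 7.39 in ADM against 3.08 to 3.91. Il11, a cytokine that signals through gp130, measured 7.20, 6.19 and 6.71 against 3.03 to 3.89, and Osmr, the receptor chain for the related oncostatin M, measured 7.37, 6.91 and 7.49 against 3.99 to 4.83. A ligand and a receptor chain of this family were therefore both in the set. Lif, a further ligand of the family, missed the margin with a gap of 0.23 and means of 7.91 in ADM and 7.17 in tumor cells.

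Lcn2 (lipocalin 2), which binds bacterial siderophores, measured 9.96, 9.76 and 10.20 in ADM. Its tumor arrays, at 3.91, 7.22 and 8.35, spread widely among themselves. Csf1, the growth factor of macrophages, measured 8.74, 8.35 and 9.54 against 4.15 to 6.59. Cxcl1, a neutrophil chemokine, and Cxcl14 were the 2 of 31 chemokines in the set (6.45%, against 0.5% of all genes). Their ADM means were 5.54 and 8.53. Of 23 macrophage and dendritic markers, 17 were above background in ADM, 21 in adult, 22 in embryonic and 10 in tumor cells, and 0 were in the set. Their summed log2 level was 106.9 to 116.8 over the ADM arrays, above the adult (103.5 to 104.4) and tumor arrays (90.6 to 93.9) and below the embryonic arrays (133.5 to 145.2). Single markers went both ways. Cd14 and Lyz2 averaged 8.11 and 9.28 in ADM, while Ptprc, Adgre1 and Aif1 were at background (3.21, 3.60 and 3.28). Cd14 was higher still in tumor cells (9.61). The part of macrophages and dendritic cells in the levels of Lcn2, Csf1, Cxcl1 and Cxcl14 was not tested. Neutrophil, lymphoid, endothelial, endocrine, neural, mesothelial and erythroid lists also gave 0 members.

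Ptgs2 (cyclooxygenase-2), the inducible enzyme of prostaglandin synthesis, measured 11.28, 11.37 and 11.24 in ADM, 9.07, 9.78 and 9.83 in tumor cells and 3.14 to 3.82 in the 6 acinar arrays. Both cultured states were far above the freshly isolated ones, and ADM was 3.33-fold above tumor cells. It was the 1 member among 17 prostaglandin genes, while Pla2g4a, the phospholipase that releases its substrate, averaged 8.73 in ADM and 8.30 in tumor cells with a gap of 0.17.

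The NRF2 list of oxidative stress genes gave 4 members of 24 (16.7%, against 0.5% of all genes). Hmox1 (heme oxygenase-1), which degrades heme, measured 10.17, 10.26 and 10.37 in ADM against 5.82 to 8.13. Nqo1, a quinone reductase, measured 7.04, 6.38 and 5.74 against 2.89 to 4.67. Akr1c18, an aldo-keto reductase, and Cbr3, a carbonyl reductase, had gaps of 1.71 and 1.03. Gclc, the limiting enzyme of glutathione synthesis, was above all 9 other arrays by 0.53.

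Cck, the hormone cholecystokinin that stimulates acinar secretion, measured 10.40, 9.91 and 10.61 in ADM and 3.55 to 6.54 elsewhere, with its highest other values in embryonic cells (4.56, 5.34 and 6.54). Cdkn2b, the cell cycle inhibitor p15, measured 6.37, 7.08 and 6.83 against 4.23 to 4.91, and Eda2r, a p53-inducible receptor, 5.93, 5.31 and 5.81 against 3.35 to 4.05. Ripk3, the kinase of necroptosis, measured 6.98, 6.66 and 7.22 against 3.64 to 4.63. Mitosis genes (23) and S phase genes (22) gave 0 members.

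Single members came from further lists: Pfkfb3 (a regulator of glycolysis, 1 of 13), S100a14 (a calcium-binding protein of epithelium, 1 of 23) and Elf3 (an epithelial ETS factor, 1 of 35). Il11 was also the 1 of 29 on the MAPK output list. Of 16 EGF receptor ligands and receptors, 0 were members, which for a list of this length is near the share of all genes (0.5%). Above all 9 other arrays were 5 of the 16, against 4.13% of all genes. Egfr itself had a gap of 0.84, with means of 9.30 in ADM and 8.07 in tumor cells, and Ereg, a ligand, 0.43 with 8.93 and 8.05. YAP and TEAD targets (25), Wnt and Hedgehog (33), Notch (21), interferon response (21) and acinar enzymes (30) also gave 0 members. For lists of this length, 0 is near the share of all genes (0.5%).

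In all, 39 of the 111 genes were on at least 1 list and 72 on none. Those with wide gaps outside the lists included Gpnmb, a glycoprotein of lysosomes and melanosomes (6.88 to 7.75 in ADM against 3.07 to 3.89), and Fbxo2, a ubiquitin ligase subunit that recognises glycoproteins (7.57 to 8.09 against 3.58 to 4.65). H2-M9, a class Ib histocompatibility gene, was at 5.50 to 6.90 and Cwh43 at 5.88 to 7.05, each with the means of all other states at background. Wincr1, a long noncoding RNA, was at 5.77 to 6.22 against 2.61 to 3.23. Of the 111, Wincr1 and Gm4610 are noncoding RNAs and Olfr1372-ps1 is a transcribed pseudogene in RefSeq, and the rest are protein coding.

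Of 108 members placed among RefSeq protein-coding genes, 4 pairs lay within 5 genes of each other. Fam3b, a secreted protein of the FAM3 family, and Tmprss2, a membrane serine protease, were direct neighbours on chromosome 16. Ctla2a and Ctla2b, both cysteine protease inhibitors, lay on chromosome 13 with 1 gene between them and are close paralogs whose probe sets may share signal. The other pairs were H2-M9 with Trim15, and Hspa1b with Slc44a4, on chromosome 17. How many such pairs other genes give was not counted, so no clustering is inferred.

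The lower set held 3 genes. Gcnt1, which makes the core 2 branch of mucin-type sugar chains, measured 5.07, 5.25 and 4.38 in ADM and 6.41 to 7.27 in the 9 other arrays, a 3.39-fold difference from tumor cells, the nearest state. Slc7a5, the large neutral amino acid transporter LAT1, measured 8.67, 8.38 and 8.43 against 9.81 to 10.72. Ccnd2 (cyclin D2), a regulator of entry into the cell cycle, measured 8.0, 8.22 and 7.99 against 9.23 to 9.62. For these genes, no contrast between the 3 other states was called by limma. The lowest adjusted p by limma was 0.0648, for Slc7a5 in tumor against adult cells (log2 fold change -0.59). With 3 arrays per state, a missing call does not show equal levels. Under housekeeping centring, 2 of the 3 genes were called lower in tumor than in adult cells.

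Just inside the margin on the higher side were Krtcap3 and Sema3f, each with a gap of 1.00, and just outside were Cemip2 (0.99) and Slc6a8 (0.98). On the lower side Ccnd2 (1.01) and Slc7a5 (1.14) were inside, and Pold2 (0.95) and Maoa (0.94) outside. The margin thus separates genes with nearly equal gaps.

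Some of the ADM-high genes were also called different among the other 3 states. The margin did not use the labels of these states, but it did use the highest of their arrays. The choice of genes is therefore not independent of the values compared here. A gene was called different at an adjusted p under 0.05 (limma, Benjamini-Hochberg over all 22180 genes) if its mean also changed by 1 log2 unit or more. In embryonic against adult acinar cells 25 of 111 were called higher (22.5%, against 10% of all genes) and 4 lower (3.60%, against 2.61%). In tumor against embryonic cells 8 were called higher (7.20%, against 6.53%) and 26 lower (23.4%, against 7.8%). In tumor against adult cells 17 were called higher (15.3%, against 14%) and 12 lower (10.8%, against 5.96%). In either direction the shares were 26.1% against 12.6%, 30.6% against 14.3% and 26.1% against 20% in the same order of contrasts. Without the genes whose mean over the 12 arrays was at background, the calls were 29, 34 and 29 of 110 members. The shares of all genes rose to 20.4%, 23.3% and 33.5%, so in tumor against adult cells the members' share was then lower. That mean includes the ADM arrays, so a member could pass by its ADM level while dim in the states compared. All 3 other states were at background for 18 of the 111 members. The filter therefore treats members and other genes unequally. The unfiltered shares do so too, as members are bright in ADM while all genes include many dim ones. No conclusion is drawn from the shares with or without the filter. The median log2 fold changes were 0.24, -0.25 and -0.09, beside -0.09, 0.07 and -0.09 over all genes. The counts share arrays between contrasts and include genes whose levels lie at background in all 3 states.

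Housekeeping centring changed the tumor against adult split to 8 higher and 51 lower, and under it 49.1% of all genes were called. It moved the median of all genes by over 0.1, to -0.93 in that contrast, -0.52 in embryonic against adult and -0.34 in tumor against embryonic cells. Under it, embryonic against adult gave 16 higher and 8 lower, and tumor against embryonic 7 higher and 35 lower. Cyclic loess gave 11 higher and 20 lower for tumor against adult, and quantile normalization 13 and 14.

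The genes named from here to the figure of called shares were picked after their values were seen. Lox was 4.05 ± 0.22 log2 units (SE) higher in embryonic than in adult cells (adjusted p = 4.94e-08 by limma) and 4.43 ± 0.22 lower in tumor than in embryonic cells (log2 fold change -4.43, adjusted p = 5.46e-09). Cldn4 was 2.40 ± 0.22 higher in embryonic than in adult cells (adjusted p = 4.99e-06), and tumor cells did not share this: the tumor against adult log2 fold change was -0.17 ± 0.22 (adjusted p = 0.579). Both genes thus had an embryonic level between the adult and the ADM level.

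Ptgs2 was 6.02 ± 0.22 log2 units higher in tumor than in adult cells (adjusted p = 3.89e-10), while embryonic and adult cells differed by 0.05 ± 0.22 (adjusted p = 0.873). Timp1 was 4.97 ± 0.31 higher in tumor (adjusted p = 3.94e-08) and 2.43 ± 0.31 higher in embryonic (adjusted p = 6.46e-05) than in adult cells. Krt20, Itga5 and Thbs1 were likewise called higher than in adult cells in both states, with log2 fold changes of 2.65, 2.37 and 2.92 in embryonic and 2.02, 2.01 and 2.67 in tumor cells. The calls of these genes against adult cells held in all 20 alternative settings.

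Other members were lower in tumor cells than in both acinar states. Mgp (matrix Gla protein), an inhibitor of calcification, measured 12.69, 12.13 and 12.58 in ADM, 9.76 to 9.82 in adult, 10.20 to 10.78 in embryonic and 4.50 to 5.50 in tumor cells. Its tumor against adult log2 fold change was -4.93 ± 0.25 (adjusted p = 7.36e-09). St14 (matriptase), a membrane serine protease of epithelium, had -3.38 ± 0.20 (adjusted p = 2.68e-08), and Tmc4 (a transmembrane channel-like protein) and Tmeff1 (a membrane protein with EGF-like and follistatin-like domains) had -3.14 ± 0.25 and -2.21 ± 0.27. All 4 were also called lower in tumor than in embryonic cells, with log2 fold changes of -2.66 to -5.70.

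Some members with wide gaps were not called between the other states. Muc5ac differed by -0.17 ± 0.54 in embryonic and -0.25 ± 0.54 in tumor against adult cells (adjusted p = 0.836 and 0.752 by limma), with all 3 states at background. The pooled spread behind this SE includes the ADM arrays. The Muc5ac SD was 1.65 in ADM and 0.09, 0.15 and 0.06 in adult, embryonic and tumor arrays. Its p-values therefore do not measure the spread of the states compared. Mmp7 differed by -0.04 ± 0.21 (adjusted p = 0.899) and -0.72 ± 0.21 (adjusted p = 0.0152), short of the fold change limit. Cftr differed by -0.01 ± 0.19 and 0.38 ± 0.19. Psca (embryonic against adult, 1.21) lost its call in 13 of 20 alternative settings and Tnc (1.22) in 7.

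**Figure D4:**
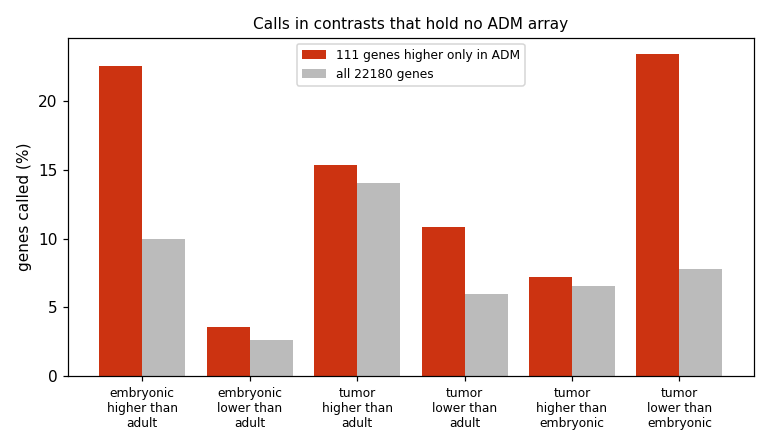
Bars give the percentage of genes called higher or lower in each contrast that holds no ADM array, for the 111 ADM-high genes (red) and for all 22180 genes (grey). The bars differ most for genes higher in embryonic than in adult cells (22.5% against 10%) and for genes lower in tumor than in embryonic cells (23.4% against 7.8%). Genes at background are included.

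The ADM arrays differed among themselves more for these genes than for others. The SD over the 3 ADM arrays had a median of 0.34 for the 111 genes, against 0.14 over the 8687 genes at least as bright in ADM as the dimmest member. For the same 111 genes the median SD was 0.25 in adult, 0.23 in embryonic and 0.27 in tumor arrays. In 29 genes the SD over the ADM arrays was over 0.5. Among them 13 were lowest in ADM array 2, 10 in array 3 and 6 in array 1. The difference in spread was not tested.

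Those lowest in array 2 were Tnc, Srpx2, Il11, H2-M9, Asic3, Tfpi2, Cxcl14, Serpinb5, Csf1, Mmp3, Rgs16, Itga5 and Cilp (a cartilage matrix protein, at 6.81, 4.96 and 6.42). Those lowest in array 3 included Muc5ac, Psca, Mucl3 and Nqo1. Over the 20 fibroblast markers the mean log2 level was 7.33, 6.52 and 7.56 in ADM arrays 1, 2 and 3. Over 28 collagen chains it was 5.65, 5.0 and 5.56, so array 2 was lowest in both. Array 2 was also lowest over the macrophage and dendritic markers (5.08, 4.65 and 4.76) and the endocrine markers (5.74, 5.24 and 5.65). It was not lowest over the endothelial markers (5.25, 5.28 and 5.10). Over the 33 gastric genes that are not members the means were 5.47, 5.36 and 5.08, lowest in array 3. The part of fibroblast content in the lower values of array 2 was not tested.

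**Figure D5:**
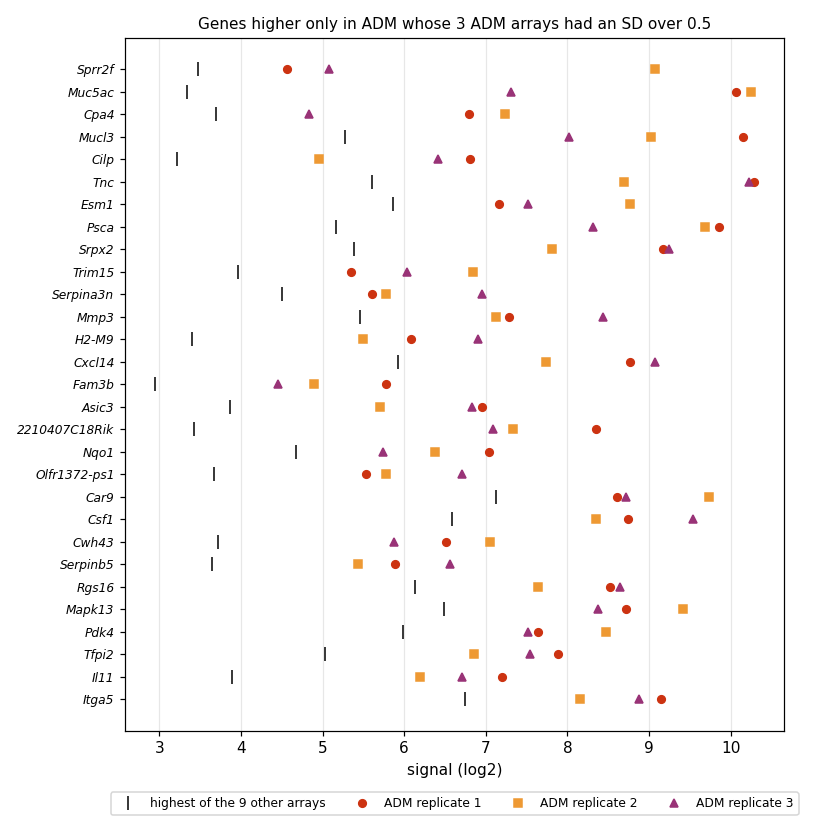
Log2 level in ADM arrays 1, 2 and 3 for the members whose SD over those arrays is above 0.5, with a vertical tick at the highest of the 9 other arrays. Muc5ac is lowest in array 3 (7.31) and Tnc in array 2 (8.69), and Sprr2f is high in array 2 alone (9.07).

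Of the 111 genes, 5 had a second probe set. Tmeff1 met the margin with it (gap 1.23), Tmc4 (0.43) and Car9 (0.38) were above the 9 other arrays by less than the margin, and Mmp7 (-0.57) and Lypd3 (-0.53) were not. For Lypd3, a surface protein of stratified epithelium, the brighter probe set averaged 4.86 in ADM and had a gap of 1.03, the smallest ADM level in the set.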

How the data were processed

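The deposited table holds log2 values for each probe set, processed by the authors; the base was inferred from the range, and software, normalization and build are not given in the sources used here. Biotin-labelled RNA was hybridised by the manufacturer's standard protocol, per the labels. Each array held 41345 probe sets, of which 23521 carried 1 gene symbol, 1814 several and 16010 none in the platform annotation, and 23328 matched a mouse gene by identifier. The brightest probe set per gene over 12 arrays was kept, leaving 22180 genes. Spp1 was not analysed here.

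Groups came from the sample labels. A linear model (limma 3.58.1, R 4.3.3, with empirical Bayes moderation) was fitted over all genes with a mean per group, 8 residual and 5.02 prior degrees of freedom, and Benjamini-Hochberg adjustment; tests were two-sided. The script was tested on simulated data. SE values come from this fit, whose spread is pooled over the 4 groups, and SD values from 3 arrays. The number of arrays limits the precision. A fold written "at least" is taken from a level at or below 3.62, the 95th percentile of group means of 1394 receptor genes. The 48 gene lists, of 1175 entries with 1067 measured, and the members were chosen with earlier results of these data known, as were the motifs. Named genes are the 25 with the widest gap, leaving out predicted genes, up to 6 members per list, marker and near-margin genes, and others where stated. Alternatives were quantile, cyclic loess and housekeeping (11 genes) scaling, other margins, other probe set rules, a replicate block and each array left out.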

Additional observations from a re-analysis of the deposited data

Results flagged for a closer look

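Outside the genes with a name, 10 of the 16010 probe sets without a symbol (0.0625%) met the higher margin, with a widest gap of 3.00, against 0.5% of the named genes. They drew attention because the comparisons above do not use them. No such probe set met the lower margin, and of the 1814 probe sets with several symbols 0 met either margin, the widest gap being 0.80.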

How the results depend on the processing

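Of the 111 ADM-high genes, 101 were in the set after quantile normalization (set size 106), 105 after cyclic loess (113) and 61 after housekeeping centring (63). Averaging probe sets gave 109, requiring every probe set 107 and raising values to the background level 109. A margin of 0.5 gave 247 higher and 19 lower genes, and a margin of 2 gave 26 and 0. The lower set of 3 became 5 under quantile normalization, 4 under loess and 9 under housekeeping centring. Leaving out replicates gave 113 to 180 higher genes and 3 to 9 lower ones; without a replicate number in all 4 states, number 1 gave 180 and number 2 gave 172, and without ADM replicate 2 alone the count was 154. The lower set held 5 genes without any 1 of the ADM replicates. Requiring every probe set turned the gap of Mmp7 to -0.57 and of Lypd3 to -0.53; no other gap changed sign. Housekeeping centring raised the calls among the higher genes in tumor against adult cells from 29 to 59, and among the lower genes from 0 to 2. Leaving out an array gave 24 to 30 calls in embryonic against adult, 27 to 32 in tumor against adult and 30 to 41 in tumor against embryonic cells, and 0 for the lower genes. Of 92 calls, 79 were kept under quantile normalization, 78 under loess, 73 under housekeeping centring, 88 with 2 groups fitted alone and 91 with the replicate block; none reversed. Same-numbered arrays share only a number (correlation of deviations -0.048 to 0.128 over 18 pairs). With the replicate block the counts were 29, 28 and 34 for tumor against adult, embryonic against adult and tumor against embryonic cells. The causes were not tested. Dim genes lie near background, where differences are compressed.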
